A study of Mus musculus with 18 samples.

Results

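This account follows 10 marker genes of basophils and mast cells, Mcpt8, Fcer1a, Prss34, Cpa3, Ms4a2, Gata2, Hdc, Cd200r3, Cma1 and Il4, through RNA-seq of dendritic cells sorted from mouse spleen. They were selected by name as markers of cells that the sort should have left behind, after it was known which subset's table lists each of them, and they are 10 of the 17903 genes listed in at least 1 raw table. Their levels by subset are therefore given as a description, with no test.

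Basophils and mast cells are granule-bearing blood and tissue cells that carry the high-affinity IgE receptor, FceRI, and release histamine and proteases when IgE on their surface is cross-linked. Mouse basophils circulate and are found in spleen, and their granules hold mast cell protease 8 (Mcpt8) and mast cell protease 11 (Prss34). Mast cells live in tissues, and connective tissue mast cells hold the chymase Cma1 and carboxypeptidase A3 (Cpa3), which basophils share in part. Neither cell belongs to the dendritic lineage, so reads of their granule genes in a dendritic cell library are of use in judging the sort.

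The study sorted 3 subsets, the conventional dendritic cells cDC1 (XCR1+) and cDC2 (CD11b+) and plasmacytoid dendritic cells, pDC (BST2+), from lineage-negative, CD64- cells of digested spleen. The cDC gates also asked for CD11c and MHCII, with CD11b- for cDC1 and XCR1- for cDC2, and the pDC gate for intermediate CD11c and no CD11b. Libraries were made with a SMARTER mRNA-seq kit. Mice were labelled HDAC1 floxed or HDAC1 Mx1-Cre and all received polyI:C, which switches on the interferon-inducible Mx1 promoter and so the Cre recombinase, with sorting 2 weeks later. Mx1-Cre acts in many cell types, blood cells of other lineages among them, and not in dendritic cells alone. Per the labels there were 3 samples of each genotype in each subset, 18 in all. The age of the mice, the antibodies of the lineage cocktail and whether samples with the same number came from 1 mouse are not given in the sources used here.

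Each raw table has 6 columns, named by codes such as a157, and 0 codes equal a sample title. Each table was taken to hold the subset in its name, no column was given a genotype, and no comparison of genotypes was made. Total counts per column ran from 23530860 to 37105002 for cDC1, from 25672768 to 33820524 for cDC2 and from 24453121 to 31773453 for pDC. The genes Xcr1, Itgam and Siglech went with the table names. Xcr1 lay at 821 to 1141 CPM (counts per 1000000 counts of the column) in the cDC1 table and at most 9.90 in the others. Itgam, which encodes CD11b, lay at 32.7 to 48.6 in the cDC2 table, at most 3.50 in pDC and at most 3.29 in cDC1. The pDC gene Siglech lay at 8009 to 9298 in the pDC table and at most 39.1 elsewhere. Wider lists of 8 or 9 marker genes per subset, summed by column, did not all do so. The cDC1 list had a median sum of 4818 CPM in pDC against 4028 in cDC1, with Irf8 its highest gene in both. The cDC2 list summed to 2012 to 2592 CPM in pDC against 1244 to 1624 in cDC2. Only the pDC list was highest in its own table, at 21498 to 24162 CPM against at most 219 elsewhere. At these depths a count of 0 allows up to 3 counts, which is 0.0809 to 0.127 CPM by column. Intervals and this limit cover counting error only. The lowest gene total in every table was 10 counts over its 6 columns, so a gene not listed for a subset has no known count there. In bulk RNA, fewer cells of a type and less RNA per cell cannot be told apart.

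Of the 10 genes, only Hdc and Cd200r3 had reads in every column of every table. The cDC1 table listed all 10, with reads in all 6 columns for 2 of them, where 86.6% of all genes listed for cDC1 had reads in all 6. The cDC2 table listed 6, 2 of them with reads in all columns against 90.5% of all its genes, and the pDC table listed 4, again with 2 against 89.3%. Among genes with a total of 50 to 200 counts, 93.0% had reads in all 6 columns for cDC1, 97.1% for cDC2 and 96.5% for pDC, and 0.480%, 0.271% and 0.442% were at 0 in 3 or more columns. Of the members, 3 in cDC1 (Mcpt8, Prss34 and Il4) and Cma1 in both cDC2 and pDC were at 0 in 3 or more columns. Mcpt8 and Prss34 have totals within that class, and Il4 and Cma1 have lower totals. Apart from Hdc and Cd200r3, the members listed for cDC2 and pDC all have totals of 10 to 40 counts, below that class. In cDC1, Gata2, Ms4a2, Cma1 and Il4 lie below it as well, at 16 to 49. No share was computed for genes with totals that low, so for these members the shares are not a like comparison. Without Hdc and Cd200r3, the members' summed level in cDC1 was 0.425 CPM in a157, 0.471 in a160, 4.81 in a163, 2.69 in a166, 5.96 in a169 and 1.64 in a172. Columns a163, a166 and a169 thus stood above the rest, a172 lay between, and a157 and a160 were lowest. In cDC2 the same sum over 4 listed genes was 1.78 CPM in a170 and at most 0.467 in the other columns, and in pDC, over 2 listed genes, it was at most 0.364.

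**Figure D1:**
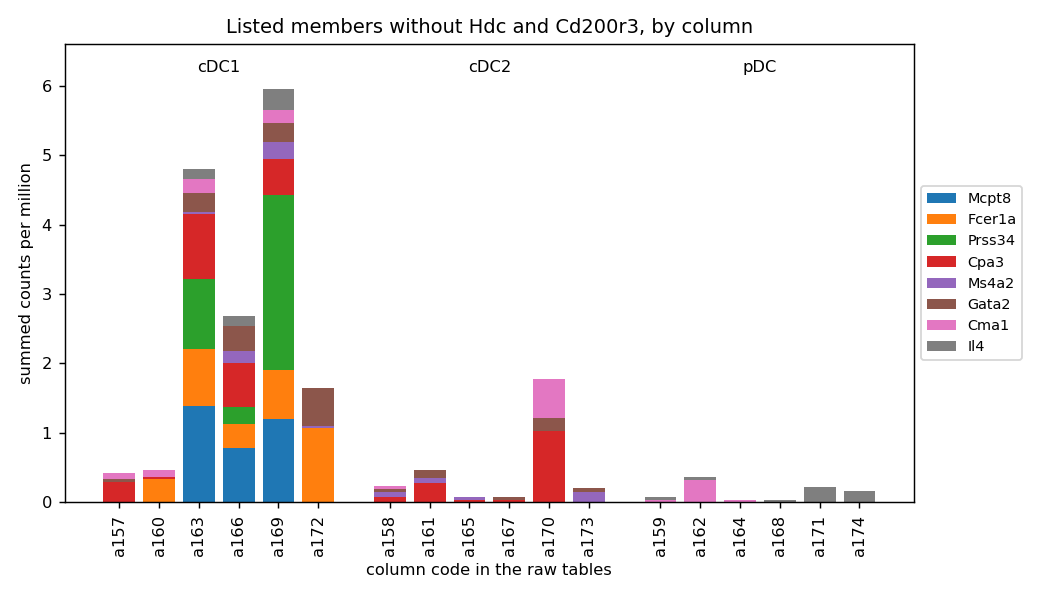
Summed CPM (y axis, linear) of the listed members other than Hdc and Cd200r3 in each of the 18 columns (x axis, grouped by table), stacked by gene. In cDC1 the bars of a163 (4.81), a166 (2.69) and a169 (5.96) hold Mcpt8, Prss34 and Il4, while that of a172 (1.64) is made up almost wholly of Fcer1a and Gata2; in cDC2 only a170 (1.78) stands out, with Cpa3 and Cma1.

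Mcpt8 encodes a serine protease of basophil granules and lies on chromosome 14 at 56082166 to 56085273, minus strand (GENCODE M21, GRCm38). Its cDC1 counts were 0 in a157, 0 in a160, 36 in a163, 26 in a166, 39 in a169 and 0 in a172. These are 1.40 CPM (95% exact Poisson interval 0.977 to 1.93) in a163, 0.777 (0.508 to 1.14) in a166 and 1.20 (0.851 to 1.64) in a169. By the limit of 3 counts, the columns at 0 allow up to 0.127 CPM in a157, 0.101 in a160 and 0.0809 in a172. The upper bounds of the exact Poisson interval there are 0.157, 0.124 and 0.0994 CPM, so the columns with reads and those without are separated by more than counting error.

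Prss34, a second basophil protease gene, is on chromosome 17 at 25298394 to 25300165, plus strand, and showed reads in the same columns. Its counts were 0 in a157, 0 in a160, 26 in a163, 8 in a166, 82 in a169 and 0 in a172. Column a169 held 70.7% of them. The 2 proteases did not keep 1 ratio: Prss34 made up 41.9% of their joint counts in a163 (exact binomial interval 29.5 to 55.2%), 23.5% in a166 (10.7 to 41.2%) and 67.8% in a169 (58.7 to 76.0%), so that a169 lay above the other columns beyond counting error. Genes with 50 to 200 counts in the cDC1 table, among which both fall, numbered 2502, and 12 of these (0.480%) were at 0 in 3 or more columns. Of all 17017 genes of the table, 40 had reads in exactly the columns where Mcpt8 had them, and among these only Prss34 and Mcpt8 reached 50 counts; the next was the eotaxin gene Ccl11 with 49 counts, 47 of them in a169. This search was made after the counts of Mcpt8 had been seen. Columns a163 and a169 also had the most genes with reads in the cDC1 table, 16575 and 16565, against 15991 to 16288 in the others. Genes with reads in other sets of 3 columns were not counted, so the 40 genes have no background to be read against. The pancreatic trypsinogen gene Prss2 was also highest in a169 (1540 counts) and a163 (672), but had 13 counts in a166, and its part in the reads of Mcpt8 and Prss34 was not tested.

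Il4, the type 2 cytokine that basophils make in quantity and that T cells and mast cells also make, was the third member with this distribution. Its cDC1 counts were 0, 0, 4, 5, 10 and 0 in the order a157, a160, a163, a166, a169, a172. In the pDC table the counts of Il4 were 1 in a159, 1 in a162, 0 in a164, 1 in a168, 7 in a171 and 5 in a174. Its highest level was 0.307 CPM, in a169 of cDC1, and the pDC values, 0 to 0.223 CPM, overlapped those of cDC1. The T cell list (Cd3d, Cd3e and 5 others, all listed) summed to 14.8 CPM in a166, its lowest cDC1 column, and to 26.9 CPM in a160, its highest; its part in the Il4 reads was not tested.

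Cpa3, the carboxypeptidase of mast cell and basophil granules, was less restricted. Its cDC1 counts were 7 in a157, 1 in a160, 24 in a163, 21 in a166, 17 in a169 and 0 in a172, so its 3 highest columns were those with Mcpt8. In cDC2, where Mcpt8 and Prss34 are not listed, the counts of Cpa3 were 2, 7, 1, 1, 29 and 0 in the order a158, a161, a165, a167, a170, a173. Column a170 held 72.5% of them (exact binomial interval 56.1 to 85.4%) at 1.03 CPM, where the highest cDC1 column, a163, had 0.930 CPM.

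Cma1, the chymase of connective tissue mast cells, is at chromosome 14, 55941451 to 55944675, minus strand. Its 16 cDC1 counts were spread as 2 in a157, 3 in a160, 5 in a163, 0 in a166, 6 in a169 and 0 in a172. In cDC2 it had 17 counts, 16 of them in a170 and 1 in a158. In pDC it had 10 counts, 8 in a162, 1 in a159 and 1 in a164. In cDC2 and pDC Cma1 was thus nearly a 1-column gene, and in cDC2 that column was also the one with Cpa3. The granule protease genes Mcpt4, Tpsb2, Tpsab1, Mcpt1 and Mcpt2 and the receptor gene Mrgprb2, all on the mast cell list, are not listed in any table. Gzmb, the granzyme B gene, lies in the same protease gene cluster on chromosome 14 as Cma1 and Mcpt8. In cDC2 and pDC it was highest in the same columns as Cma1. Its counts were 87 in a170 and 0 to 9 in the other cDC2 columns. In pDC they were 30 in a162 and 0 to 6 in the other columns. In cDC1 Gzmb was highest in a166, where Cma1 was at 0. The NK cell list (Ncr1, Klrb1c, Nkg7, Klre1, Gzma, Prf1 and Eomes) was also highest in a162 of pDC, at 14.6 CPM. It was highest in a166 of cDC1 too, at 28.0 CPM. In cDC2 the NK cell list was highest in a158, at 16.2 CPM, with 11.5 in a170. Its part in the Gzmb reads was not tested.

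How much of each member's sequence is shared with other genes was measured on the GENCODE M21 transcripts. Of the stretches of 31 bases in the transcripts of Mcpt8, Prss34, Fcer1a, Cpa3, Gata2 and Il4, 0% occurred in transcripts of another gene. The share was 10.6% for Cma1, all of it with Gm48934, 4.03% for Ms4a2, 3.65% for Cd200r3 and 0.487% for Hdc.

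The promoters of 4 members are printed because 3 of them, Mcpt8, Prss34 and Il4, had reads in the same cDC1 columns, and the fourth, Ms4a2, holds 3 GATA words in its window, as does Cd200r3, which is not printed. Each is the RefSeq window (GRCm38.p6) from 250 bases before to 50 after an annotated start, 5′ to 3′ on the gene's strand. Il4 has 2 such windows: the first is printed and lies inside the GENCODE gene, and the second, chr11:53618616-53618915, spans the gene's 5′ end. Capitals mark the words searched for, the core bound by GATA factors, on either strand. These were AGATAA and, with its last base changed, AGATAG. The others began with T and were TGATAA and, again with the last base changed, TGATAG. No word is the reverse complement of another.
Mcpt8, chr14:56085148-56085447, minus strand: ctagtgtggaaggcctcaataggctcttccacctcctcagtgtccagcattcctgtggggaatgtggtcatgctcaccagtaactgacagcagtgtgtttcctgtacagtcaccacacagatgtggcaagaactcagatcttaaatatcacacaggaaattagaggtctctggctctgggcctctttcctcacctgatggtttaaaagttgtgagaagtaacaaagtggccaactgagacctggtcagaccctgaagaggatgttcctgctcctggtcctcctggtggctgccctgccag
Prss34, chr17:25298144-25298443, plus strand: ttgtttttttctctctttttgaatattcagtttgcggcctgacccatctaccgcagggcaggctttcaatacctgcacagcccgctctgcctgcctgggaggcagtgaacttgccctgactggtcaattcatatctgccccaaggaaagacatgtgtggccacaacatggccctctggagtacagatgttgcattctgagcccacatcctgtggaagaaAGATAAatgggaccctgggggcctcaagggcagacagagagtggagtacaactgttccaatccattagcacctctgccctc
Il4, chr11:53617289-53617588, minus strand: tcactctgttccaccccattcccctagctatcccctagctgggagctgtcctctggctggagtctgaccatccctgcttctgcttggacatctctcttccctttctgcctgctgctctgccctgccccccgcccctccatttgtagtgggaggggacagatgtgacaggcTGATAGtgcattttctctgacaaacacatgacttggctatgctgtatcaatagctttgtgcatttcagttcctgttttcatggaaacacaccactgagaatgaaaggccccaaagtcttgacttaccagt
Ms4a2, chr19:11623670-11623969, minus strand: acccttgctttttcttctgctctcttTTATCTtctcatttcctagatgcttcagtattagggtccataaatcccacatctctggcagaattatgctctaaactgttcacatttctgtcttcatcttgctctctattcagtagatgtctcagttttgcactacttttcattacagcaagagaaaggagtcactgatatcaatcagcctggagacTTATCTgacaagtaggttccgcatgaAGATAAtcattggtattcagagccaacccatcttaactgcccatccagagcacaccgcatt
Windows were found for all 10 members, and at least 1 word stood in those of 8. Here Gata2 and Il4, with 2 windows each, were counted by gene. Counted by window and not by gene, 29.8% of all 32851 windows of this length held a word. Mcpt8 and Gata2 had none, Ms4a2 had words beginning 224, 37 and 11 bases before the start, Prss34 had 1 beginning 31 bases before, and the printed Il4 window had 1 beginning 80 bases before. The second Il4 window had TGATAA beginning 14 bases after the annotated start, and Cd200r3 had words beginning 115, 39 and 33 bases before its own. A word is a match of letters, not a shown binding site, and its absence from a window says nothing of the factor.

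Fcer1a encodes the IgE-binding alpha chain of FceRI (chromosome 1, 173221284 to 173227214, minus strand) and is listed for cDC1 alone. Its counts were 0 in a157, 10 in a160, 21 in a163, 12 in a166, 23 in a169 and 40 in a172. The distribution differed from that of Mcpt8 in a172, which had the highest Fcer1a level, 1.08 CPM, and in a160, with 0.336 CPM, both with 0 reads of Mcpt8. In a163, a166 and a169, the columns where both genes had reads, Fcer1a made up 36.8%, 31.6% and 37.1% of the joint counts of the 2 genes, shares that lie within each other's counting intervals.

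Ms4a2 encodes the beta chain of the receptor, which amplifies its signal and which basophils and mast cells carry. It had 16 cDC1 counts, 0 in a157, 0 in a160, 1 in a163, 6 in a166, 8 in a169 and 1 in a172. In cDC2 it had 10, with 2, 2, 1, 0, 0 and 5 in the order a158, a161, a165, a167, a170, a173. The cDC2 column with Cpa3 and Cma1, a170, thus had 0 reads of Ms4a2. The third component, the gamma chain Fcer1g, is shared by other Fc receptors and was abundant in all columns, with a median of 207 CPM in cDC1, 1566 in cDC2 and 983 in pDC. Per kilobase of exon, Fcer1g had a median of 236 CPM per kilobase in cDC1, while Fcer1a reached at most 1.08 and Ms4a2 at most 0.0873 CPM per kilobase in any cDC1 column.

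Gata2, a transcription factor of basophils, mast cells, stem cells and the megakaryocyte branch, had cDC1 counts of 1 in a157, 0 in a160, 7 in a163, 12 in a166, 9 in a169 and 20 in a172. Its level in a172, 0.539 CPM, was the highest, as for Fcer1a. In cDC2 it had 1, 3, 0, 1, 5 and 2 counts in the order a158, a161, a165, a167, a170, a173, so that a170 was highest at 0.178 CPM. Column a172 was also highest in the platelet and megakaryocyte list (Pf4, Ppbp, Itga2b, Gp9, Gp1bb and Gp5, all listed), at 45.7 CPM against 3.95 to 5.80 in the other cDC1 columns. Most of it was the platelet chemokine gene Pf4, with 1274 counts in a172. Gata1, the factor of erythroid and megakaryocytic cells that basophils also use, was at 4.69 CPM in a172 and at 0.349 to 1.81 CPM in the other cDC1 columns. Whether these had a part in the Fcer1a and Gata2 reads of a172 was not tested. This column also had the deepest total of the cDC1 table and the lowest of the authors' scaling factors, 0.699.

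**Figure D2:**
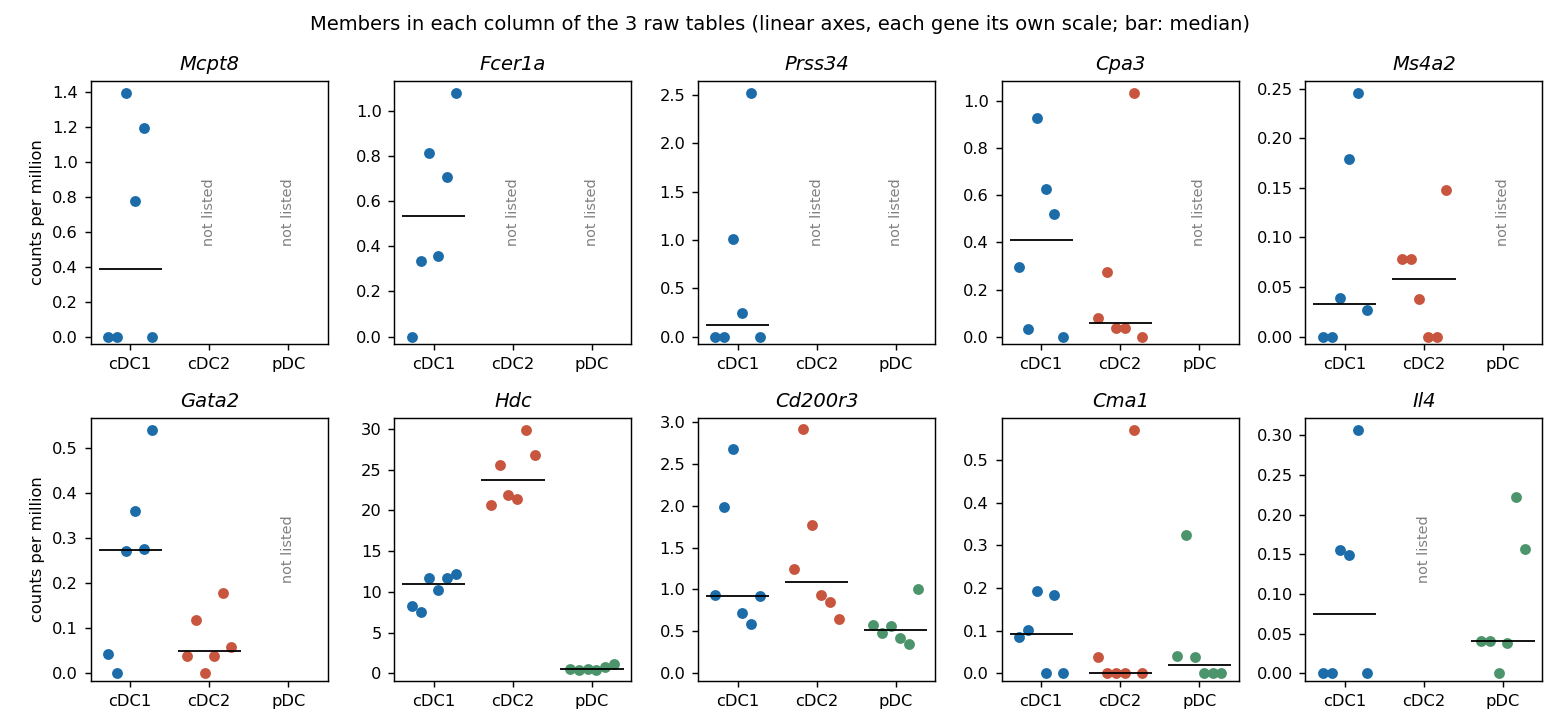
CPM (y axis, linear, each gene on its own scale) of each member in the 6 columns of each table (points, in column order from left to right), with the median as a bar. Of the 3 members listed in all tables, Hdc, Cd200r3 and Cma1, only Hdc has points in separate bands for the 3 subsets. These run from 0.349 to 1.13 in pDC up to 20.7 to 29.9 in cDC2. The granule and receptor genes lie under 3 CPM with many points at 0.

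Hdc encodes histidine decarboxylase, which makes histamine and is used by basophils, mast cells and some other myeloid cells. Unlike the granule genes it had 194 or more reads in every column of both conventional subsets. In cDC1 its counts were 194, 224, 302, 341, 382 and 451 in the order a157 to a172, in cDC2 531, 658, 571, 574, 838 and 908 in the order a158 to a173, and in pDC 12, 11, 14, 9, 24 and 36 in the order a159 to a174. The levels ran from 7.53 to 12.2 CPM (median 10.9) in cDC1, from 20.7 to 29.9 (median 23.8) in cDC2 and from 0.349 to 1.13 (median 0.506) in pDC. The 3 ranges did not overlap, with cDC2 highest and pDC lowest. Within cDC1, columns a157 and a160, without Mcpt8, had 8.24 and 7.53 CPM of Hdc and the other 4 had 10.2 to 12.2, among them a172, which also had 0 reads of Mcpt8. Hdc made up a median of 75.2% of the members' summed counts in cDC1, 92.8% in cDC2 and 44.8% in pDC, so a sum over all members mostly follows Hdc.

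Cd200r3, an activating receptor of the CD200 receptor family used to stain mouse basophils and mast cells, was also in every column. Its cDC1 counts were 22, 59, 69, 24, 19 and 34 in the order a157, a160, a163, a166, a169, a172. In cDC2 they were 32, 75, 46, 25, 24 and 22 in the order a158, a161, a165, a167, a170, a173, and in pDC 14, 12, 15, 11, 11 and 32 in the order a159, a162, a164, a168, a171, a174. The ranges, 0.583 to 2.67 CPM in cDC1, 0.650 to 2.92 in cDC2 and 0.350 to 1.01 in pDC, overlapped. In cDC1, a163 had the highest level of both Cd200r3 and Mcpt8, a169, second for Mcpt8, had the lowest Cd200r3 level, and a160, with 0 Mcpt8 reads, had the second highest.

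Markers of other cells were summed in the same columns; some are also expressed by dendritic cells, and cells carried along and free RNA cannot be told apart. The eosinophil list was listed for 6 of 7 genes in cDC1 and 5 in the others, summed to 4.85 to 9.86 CPM in cDC1, 5.76 to 15.3 in cDC2 and 2.36 to 4.17 in pDC, and its granule peroxidase gene Epx is not listed in any table. In cDC2 the eosinophil sum was 15.3 CPM in a170 and 14.7 CPM in a167. Ccr3, the eotaxin receptor of eosinophils and basophils, had 206 counts in a170 against 29 to 97 in the other columns. The other eosinophil genes listed for cDC2 were highest elsewhere, Prg2 and Prg3 in a167, Siglecf in a158 and Il5ra in a173. All 10 neutrophil markers were listed, and their sum ran from 296 CPM in a163 to 1133 CPM in a169 for cDC1; the 2 columns with most reads of the members other than Hdc and Cd200r3 were thus its lowest and its highest. All 9 erythroid markers were listed, at 3272 to 8914 CPM in cDC1, highest in a160. The mast cell list without Kit had 2 of 8 genes listed in cDC1 and cDC2, Cpa3 and Cma1, and 1 in pDC, Cma1. The part of these cells in the members' reads was not tested.

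**Figure D3:**
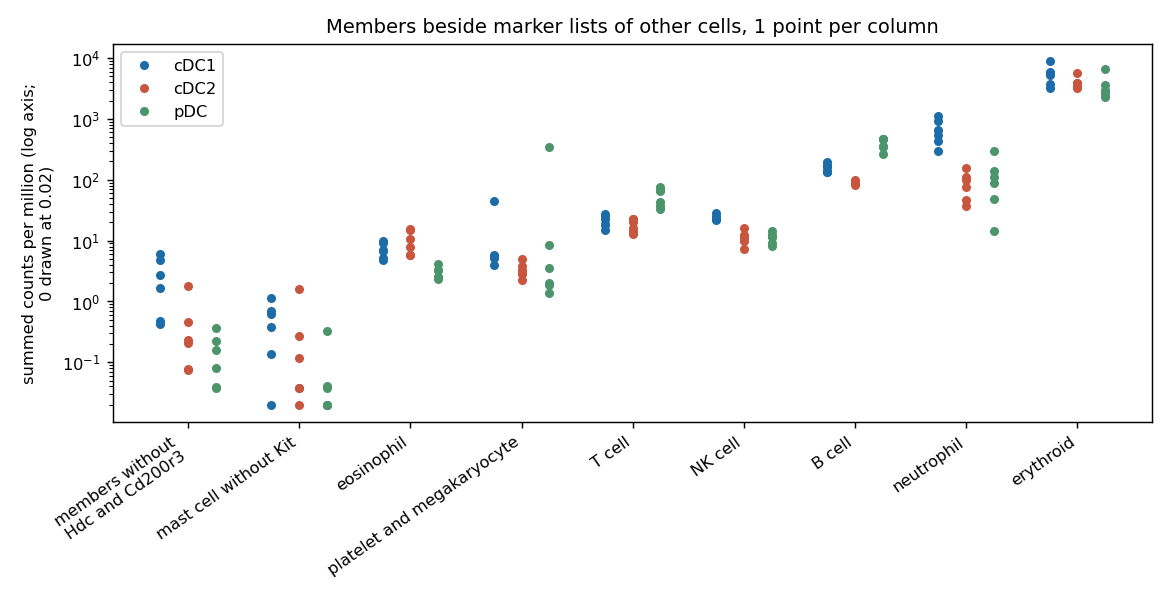
Summed CPM (y axis, log scale, with 0 drawn at 0.02) of the members without Hdc and Cd200r3 and of 8 marker lists (x axis), 1 point per column, coloured by table. The members lie at 0.425 to 5.96 in cDC1, below the eosinophil sum of the same column (4.85 to 9.86) in each of the 6, and far below the neutrophil list at 296 to 1133 and the erythroid list at 3272 to 8914.

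For each table, the genes that most set apart the column with the highest summed level of all listed members were taken, by the ratio of that column to the highest of the others, among genes with a mean of 1 CPM or more. In cDC1 this column was a163 (19.2 CPM, exact Poisson interval 17.5 to 20.9), not separated from a169 (18.3, 16.8 to 19.8). Without Hdc and Cd200r3 the highest column was a169, at 5.96 CPM against 4.81 in a163. Of the 15 genes of a163, 4 were immunoglobulin kappa segments, led by Igkv17-121 with 2203 counts and a ratio of 32.7. None of the 15 was a member. In cDC2 it was a170 (32.5 CPM), where Igkv12-89 had 385 counts against 0 in the other columns and Ccr3 came next with a ratio of 2.56. The rest of the 15 had ratios of 1.52 to 1.87, among them Igf1 (1.87), Slpi (1.82), Cd5l (1.71) and Fcna (1.58), and none was a member. In pDC it was a174 (2.30 CPM), led by Igkv12-44 with 2511 counts and a ratio of 227, with the neutrophil genes S100a9, Ngp and S100a8 among the 15. These are genes ranked in single columns, with no test.

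The receptor, signalling and mediator genes of basophils and mast cells other than the members were taken as a list of 55. The cDC1 and cDC2 tables each held 48 of them, and 46 were in that of pDC; Il13 and the 6 mast cell genes named above were in no table. Signalling partners of FceRI differed widely in level. The adaptor gene Lat had a median of 1.15 CPM in cDC1, 0.363 in cDC2 and 3.74 in pDC, and the phospholipase gene Plcg1 7.44, 6.46 and 8.01. The kinase Lyn had a median of 274 CPM in cDC1, 525 in cDC2 and 441 in pDC, and Alox5ap, which serves leukotriene synthesis, had 326, 278 and 384. Kit, the stem cell factor receptor that marks mast cells, lay at 50.7 to 112 CPM in cDC1, 125 to 180 in cDC2 and 4.81 to 10.8 in pDC. The IL-3 receptor gene Il3ra had medians of 5.52, 5.58 and 9.59 CPM, and Il1rl1, the IL-33 receptor of mast cells and basophils, 0.752, 0.717 and 0.929.

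These 55 genes were compared between subsets with edgeR's quasi-likelihood test over the 13539 genes that were listed in all tables and passed the low-count filter, 45 of them on the list. The columns of a subset served as its replicates, genotype unknown by column, and the p-values measure only the spread between these columns. The 3 comparisons share columns with each other. Between cDC1 and cDC2, 7 of 45 were higher in cDC1 and 17 in cDC2 at an adjusted p under 0.05, where 24.8% and 25.7% of all genes were, and the list's median log2 difference was -0.07 against 0.01 for all genes. The largest differences were Ifitm1, an interferon-induced membrane protein gene, at -4.80 ± 0.20 (SE; adjusted p = 1.534e-13, edgeR), Ptgs2, which encodes the prostaglandin synthase COX-2, at -4.65 ± 0.24 (adjusted p = 3.506e-12), the chemokine gene Ccl3 at -3.10 ± 0.44 (adjusted p = 6.483e-06), Alox5, the 5-lipoxygenase gene, at 3.08 ± 0.83 (adjusted p = 0.00407) and Fcer1g at -2.86 ± 0.12 (adjusted p = 1.365e-13), as log2 of cDC1 over cDC2. Of these, Alox5 was near the limit of 3 counts, with a median of 0.525 CPM in cDC1 and 0.0576 in cDC2. In cDC2 its highest column had 0.118 CPM and 2 columns were at 0.

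Between cDC1 and pDC, 11 of 45 were higher in cDC1 and 17 in pDC, against 34.3% and 32.1% of all genes, with a median log2 difference of -0.04 for the list and 0.04 for all genes. The granule membrane gene Cd63, at 5.91 ± 0.50 (SE), the cytokine gene Il6, at 5.14 ± 0.41, and Ptgs2, at 4.17 ± 0.27, were higher in cDC1, and the activation marker gene Cd69, at -3.91 ± 0.28, and the integrin gene Itgb3, at -3.44 ± 0.22, were higher in pDC. Between cDC2 and pDC, 16 were higher in cDC2 and 13 in pDC, against 32.2% and 32.0% of all genes, with medians of 0.04 and 0.01. Here Ptgs2 (8.82 ± 0.31), Ifitm1 (7.38 ± 0.24), Il6 (5.99 ± 0.42), Cd63 (5.94 ± 0.50) and Kit (4.32 ± 0.19) were all higher in cDC2. Most of these genes are used by dendritic cells or other myeloid cells as well, so the list is not specific to basophils and mast cells.

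**Figure D4:**
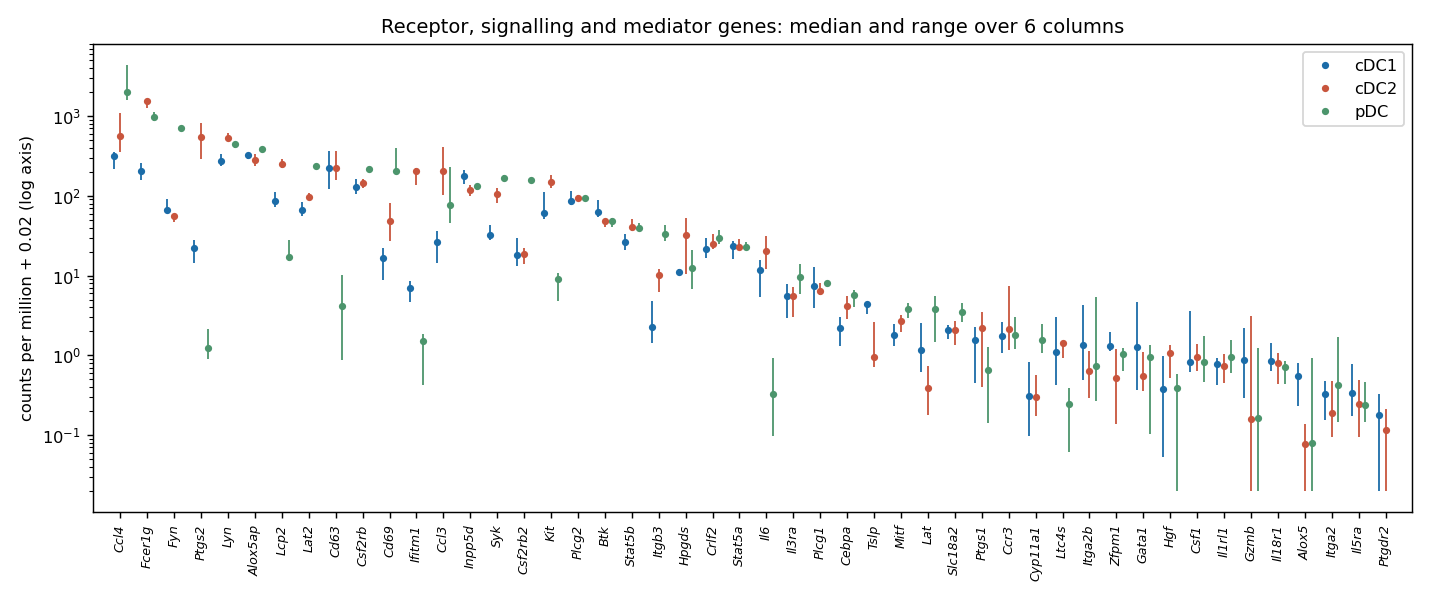
CPM + 0.02 (y axis, log scale) of the receptor, signalling and mediator genes listed in at least 1 table (x axis, ordered by their highest median), as the median (point) and range (line) over 6 columns per table. Shared signalling genes such as Fcer1g, Lyn and Alox5ap lie above 150 CPM in each subset, while the medians of Il1rl1, Il5ra and Ptgdr2 lie below 1 CPM wherever they are listed.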

How the data were processed

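For every subset the authors deposited one table of raw and one of normalized values. Per the submitters' processing notes, kallisto, DESeq2 and GRCm38 were used, with no versions or roles; the annotation they used is not given in any source used here. The deposited raw values are whole-number counts per gene symbol. The authors' normalized signal is the raw count times 1 factor per column (0.699 to 1.24), set within each table. Columns were assigned to subsets by table name. CPM was computed from the raw column totals, levels per kilobase from merged GENCODE M21 exons. The members and lists were chosen with earlier results of these data known. The named genes are the members, the 5 pathway genes of largest difference and of highest median CPM, and the 15 genes of the highest column; Ccl11, Gata1, Gzmb, Pf4, Ppbp, Il3ra, Il1rl1, Lat, Plcg1 and the pancreatic genes were chosen after their values were seen. Subsets were compared with edgeR 4.0.16 (TMM, filterByExpr, Benjamini-Hochberg), checked on simulated counts; alternatives were DESeq2 1.42.0, no filter, other scalings, detection limits of 3 and 10 counts, and leaving out columns. The SE of a log2 difference was computed as its absolute value over the square root of edgeR's F statistic. Genotypes were not compared because 0 column codes equal a sample title.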

Additional observations from a re-analysis of the deposited data

Results flagged for a closer look

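Within each table the highest and lowest of the 6 columns were compared with the rest for each member and for 2 sums, 26 groups in all, and 6 had a column whose gap to its neighbour exceeded Dixon's 95% critical value for 6 samples. For normally distributed values, about 1 in 20 such groups is picked out by chance alone. Counts that are mostly 0, such as those of Cma1, are not so distributed, so the rate for these groups is not known. In cDC2 the column was a170 for Cpa3, at 1.03 CPM with the next at 0.273, for Cma1, at 0.571 with the next at 0.0389, and for the sum without Hdc and Cd200r3, at 1.78 with the next at 0.467. These 3 are not independent, since the sum holds both genes. In pDC it was a162 for Cma1, at 0.324 CPM with the next at 0.0409. It was a174 for Cd200r3, at 1.01 CPM with the next at 0.573, and for the sum of all listed members, at 2.30 with the next at 1.34. No member was picked out in cDC1, where Mcpt8, Prss34 and Il4 each had reads in 3 columns.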

How the results depend on the processing

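Leaving the 50 most abundant genes out of the library total raised the members' summed CPM, by construction, to a median of 21.0 and a highest value of 29.8 in cDC1 and of 38.4 and 48.3 in cDC2, and the highest pDC value to 3.09; TMM-scaled totals moved these sums, and the authors' normalized values the ratio of the highest to the median column, by less than the spread between columns. The share of the members' counts in the highest column was 22.8% in cDC1 and 21.4% in cDC2; it became 29.6% and 28.7% without Hdc, and 39.4% and 63.3% without Hdc and Cd200r3, a setting chosen after seeing the data. The ratio of the highest to the median column in pDC was 1.88 and fell to 1.17 without a174; in cDC1 it was 1.35 and 1.34 without a163, in cDC2 1.26 and 1.22 without a170, also chosen after seeing the data. Pairs of a member and a column with reads numbered 44 in cDC1, 28 in cDC2 and 20 in pDC; with 10 counts or more required they numbered 28, 14 and 11, with 3 or more 18 in cDC2, and in pDC 1 member rather than 2 then reached 10 counts in all columns. Counts of genes called between subsets stayed within 1.5 times their value under DESeq2, without the filter and without a163, a170 or a174; over all genes the latter gave 6552 to 6651 between cDC1 and cDC2, 8816 to 8844 between cDC1 and pDC and 8435 to 8503 between cDC2 and pDC, and on the list 25 to 25, 27 to 28 and 28 to 29. On the list, the median log2 difference between cDC1 and pDC was -0.04 and turned to 0.01 under DESeq2 and to 0.0050 without the filter, and that between cDC2 and pDC was 0.04 and turned to -0.04 without a170. Without a174 the median over all genes turned from 0.04 to -0.01 between cDC1 and pDC, with 4220 genes higher in cDC1 and 4624 in pDC (4645 and 4341 with it), and from 0.01 to -0.03 between cDC2 and pDC, with 4005 higher in cDC2 and 4430 in pDC (4355 and 4329 with it). No paired analysis was possible because the column codes carry no replicate number or genotype. Counts of 1 to 10, as for Ms4a2, Cma1 and Il4, are near the limit of what this depth can tell from 0.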

Other observations

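Digestive enzyme genes of the exocrine pancreas, which lies next to the spleen, also differed between columns of 1 table. They were looked at after their values had been seen. In cDC1 the trypsinogen gene Prss2 had 264 counts in a157, 28 in a160, 672 in a163, 13 in a166, 1540 in a169 and 7 in a172. The elastase gene Cela2a had 216, 12, 819, 7, 1575 and 3 counts and the amylase gene Amy2a5 43, 105, 767, 12, 1788 and 2 in the same order. Columns a163 and a169, with the most Mcpt8 and Prss34 reads, were thus the highest for all 3 genes, while a166, which had 26 reads of Mcpt8, was among the lowest. In cDC2, a161 was highest for all 3, with 704 counts of Prss2, 579 of Cela2a and 1265 of Amy2a5, and a170, the column with Cpa3 and Cma1, had 53, 74 and 410. The part of such tissue in the members' reads was not tested.

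In pDC, column a164 had 3090 counts of Pf4 and 5456 of Ppbp, both platelet chemokine genes, and the other columns had 8 to 94 and 8 to 78. Fcer1a and Gata2 are not listed for pDC.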
